A study of Mus musculus with 10 samples.

Results

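Cytosolic ribosomal protein genes encode the proteins that, with ribosomal RNA, build the small (40S) and large (60S) subunits of the ribosome. Their open chromatin was examined in mouse Th17 cells, helper T cells known for producing interleukin-17, by ATAC-seq, in which a transposase cuts accessible DNA. A site belonged to the set when the nearest protein-coding gene body, overlapping or within 50 kb on GRCm38, carried a name of the form Rpl or Rps with a number, or was Rplp0, Rplp1, Rplp2 or Rpsa, with the Rps6k kinases left out. This gave 145 of the 39657 sites in the deposited table, at 78 of 91 genes with such names. Another 23 sites had a ribosomal protein gene as their nearest gene body but lay over 50 kb away and were not members, and the farthest member lay 36509 bp from its gene.

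Naive CD4+ T cells came from mice with floxed pyruvate dehydrogenase (PDH fl/fl, which the sample titles write as PHD-fl/fl), the enzyme that makes acetyl-CoA from pyruvate in mitochondria. Cells carrying CD4-Cre, a recombinase active in T cells, are called KO here, and floxed cells without Cre are called WT. Both were sorted with magnetic beads from spleen and lymph nodes and grown for 3 days with anti-CD3, anti-CD28, IL-6, TGFβ and anti-IFNγ, either untreated or with 10 mM sodium acetate, another source of acetyl-CoA. The libraries were KO untreated (n = 3), WT untreated (n = 3), KO acetate (n = 2) and WT acetate (n = 2). No label says that libraries of a group came from separate animals, so p-values measure only the spread between these libraries, which may be technical. The labels name no PDH subunit, and accessibility of a floxed gene does not check its deletion.

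A T cell that starts to divide needs many new ribosomes, and ribosomal protein genes are among the most strongly transcribed genes in growing cells. Their mRNAs begin with a 5′ terminal oligopyrimidine (TOP) tract, a C followed by a run of pyrimidines, through which mTOR signalling and the RNA-binding protein LARP1 control their translation. Ribosomal protein promoters are also known for binding sites of ETS factors (such as GABP), of YY1 and, in some genes, of a CpG-containing palindrome bound by BANP.

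Promoter windows of 300 bases from RefSeq on GRCm38.p6, reaching from 250 bases before to 50 after an annotated start, were matched by symbol to 70 of the 91 genes (82 windows). The 5 windows below are shown because each overlaps a site described later and because they differ in the motifs they hold. Capitals mark an ETS core, a YY1 motif, an E-box, the palindrome or a TOP tract, letters run 5′ to 3′ along the gene, and positions are counted from 0 at the annotated start base. Rps6, at chr4:86857318-86857617 on the minus strand, encodes the 40S protein phosphorylated by the S6 kinases; it holds an ETS core from -91 to -85, the palindrome from -51 to -42 and a TOP tract from -1 to 8. Rpl35, at chr2:39005082-39005381 on the minus strand, encodes a 60S protein at the exit of the peptide tunnel. It has an ETS core from -127 to -121 and a TOP tract from -5 to 10. Rpl13a, at chr7:45128696-45128995 on the minus strand, has YY1 motifs on both sides of its start, an E-box and a TOP tract from 2 to 15. Rpsa, at chr9:120127516-120127815 on the plus strand, encodes a 40S protein also known as the laminin receptor, and shows an ETS core only. Rplp0, at chr5:115559217-115559516 on the plus strand, encodes the base of the ribosomal stalk and holds none of the marked motifs.
Rps6: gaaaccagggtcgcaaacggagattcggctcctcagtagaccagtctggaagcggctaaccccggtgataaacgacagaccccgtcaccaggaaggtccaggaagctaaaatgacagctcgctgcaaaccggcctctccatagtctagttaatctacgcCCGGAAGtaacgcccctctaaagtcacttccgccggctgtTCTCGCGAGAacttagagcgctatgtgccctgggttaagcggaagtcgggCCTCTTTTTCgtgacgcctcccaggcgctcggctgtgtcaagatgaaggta
Rpl35: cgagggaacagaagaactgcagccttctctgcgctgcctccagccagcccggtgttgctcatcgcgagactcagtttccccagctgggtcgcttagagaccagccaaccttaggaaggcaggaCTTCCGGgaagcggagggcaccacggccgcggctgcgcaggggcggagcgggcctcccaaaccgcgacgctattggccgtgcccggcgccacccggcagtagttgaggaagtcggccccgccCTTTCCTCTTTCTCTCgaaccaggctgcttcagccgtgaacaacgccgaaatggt
Rpl13a: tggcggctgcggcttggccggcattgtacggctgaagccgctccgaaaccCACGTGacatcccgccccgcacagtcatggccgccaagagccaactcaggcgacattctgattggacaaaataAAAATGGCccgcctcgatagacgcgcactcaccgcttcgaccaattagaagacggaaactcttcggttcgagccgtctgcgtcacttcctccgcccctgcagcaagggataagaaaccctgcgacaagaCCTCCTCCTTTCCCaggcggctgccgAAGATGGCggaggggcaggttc
Rpsa: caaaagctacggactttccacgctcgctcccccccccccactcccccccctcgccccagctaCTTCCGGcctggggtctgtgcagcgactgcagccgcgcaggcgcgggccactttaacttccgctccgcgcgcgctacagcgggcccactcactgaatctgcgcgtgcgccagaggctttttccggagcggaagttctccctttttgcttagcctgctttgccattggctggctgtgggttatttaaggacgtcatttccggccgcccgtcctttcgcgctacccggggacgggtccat
Rplp0: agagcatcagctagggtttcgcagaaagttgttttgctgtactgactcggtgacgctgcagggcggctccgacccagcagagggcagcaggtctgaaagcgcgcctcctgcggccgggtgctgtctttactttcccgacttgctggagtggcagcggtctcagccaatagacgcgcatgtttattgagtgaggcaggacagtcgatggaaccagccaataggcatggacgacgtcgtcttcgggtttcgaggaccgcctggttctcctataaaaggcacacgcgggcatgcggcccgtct

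The same motifs were counted over all 82 ribosomal protein windows and all 32851 RefSeq windows of that length, on both strands for everything but the TOP tract. The ETS core CCGGAAG stood in 32.9% of ribosomal protein windows and in 8.86% of all windows. The YY1 motif AANATGGC stood in 22% against 6.05%, and the palindrome in 8.54% against 0.466%. The E-box CACGTG was at 9.76% against 7.15%, the NRF1 motif at 2.44% against 0.971%, and the GC box GGGCGG at 57.3% against 35.7%. CCAAT (30.5% against 37.4%) and the TATA box TATAAA (11% against 13.6%) were no more frequent than elsewhere. A C followed by at least 4 pyrimidines began exactly at the annotated start in 18.3% of ribosomal protein windows against 2.51% of all, and within 5 bases of it in 41.5% against 18.3%. Hits of 2 different motifs shared a base in 1 of the 82 windows. A match describes letters in this window and is not a measured binding site.

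The sites lay mostly near the ends of their genes. Of the 145 sites, 87 were within 1 kb of either end of the gene body, against 24.4% of all sites. Another 15 lay inside a gene body and 43 outside it. Of 59 genes with both a site and a promoter window, 55 had a site on that window, 57 sites in all, with site centres at a median of -50 bp from the start (range -329 to 133 bp). The set held 54 sites at 40S genes and 91 at 60S genes, 42 genes had 1 site, and 13 sites overlapped another gene body as well. Of the canonical proteins, the genes Rplp2, Rps19, Rps25 and Rps27a had no site in the table. The other 9 genes without one were, by their names, copies, gene models or a binding protein.

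**Figure D1:**
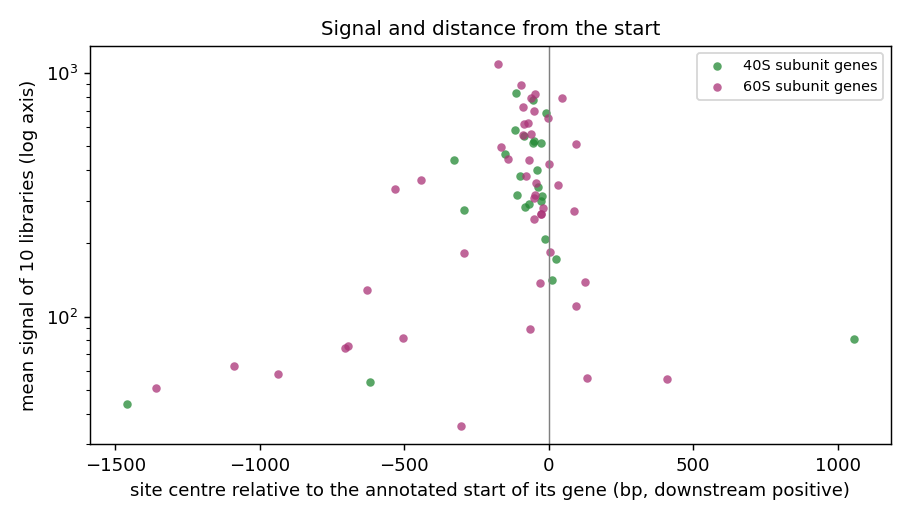
Mean signal of the 10 libraries (y axis, log scale) against the distance of the site centre from the annotated start of its gene in bp (x axis), for ribosomal protein sites within 2 kb of a start, 1 point per site, coloured by subunit. Most points gather near the start (median of the sites on start windows -50 bp), and the highest, Rpl13a at 1090, lies just before it.

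On the authors' scale, the signal of a site is its read number after division by a factor that is fixed for each library. Ribosomal protein sites had a median mean signal of 280.0, against 146.0 for all sites and 310.7 for all sites at gene ends. Those at their own gene ends had a median of 342.1, so they were close to other gene-end sites in level. Within the set, the 58 sites away from gene ends had a median of 145.3. The highest was the Rpl13a promoter site (chr7:45128821-45129021) with a mean of 1090, and Rplp0 (897) and Rps21 (827) were also among the highest. Rpl13a ran from 773 to 1498 over the 10 libraries and Rplp0 from 654 to 1100, so that the strongest sites overlap across libraries. The lowest means were at Rpl26 (35.5), at a site inside Rps24 (37.4) and at a site 30761 bp from Rplp1 (43.3).

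Each library held between 3500172 and 13356560 reads in the sites of the table, and a ribosomal protein site held a median of 108 to 381 reads. The median signal of all sites was 91.0, 94.3 and 117 in KO untreated and 191, 156 and 163 in WT untreated libraries, so the libraries differ in overall level on the deposited scale. Mitochondrial sites held 1.18% to 2.01% of the signal in KO untreated and 0.201% to 0.658% in the other libraries. Column names begin with ATAC2 for WT untreated 4 and the 4 acetate libraries, and with ATAC1 for the remaining 5. All acetate libraries carry ATAC2 and all KO untreated libraries ATAC1, so within KO cells acetate and that prefix cannot be told apart. A fit with the prefix as an additive term, added after the data were seen, takes the prefix difference from untreated WT cells, where ATAC2 is WT untreated 4 alone. Of a list of CD4 T cell and Th17 genes, not all of them restricted to these cells, 13 of 13 had sites. CD8 T cell genes had none (0 of 2), myeloid genes 3 of 5, NK cell genes 2 of 3, and B cell genes 1 of 4, Pax5, whose sites held 0.0032% to 0.0038% of the signal in KO untreated and 0.0006% to 0.000937% in WT untreated libraries, with Cd79a, Cd79b and Ms4a1 without a site. The part of these differences in the results was not tested. A gene without a site here was not shown to be closed, since the table's rows are read below as a choice.

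Without acetate, ribosomal protein sites had lower signal in KO than in WT cells, by about as much as other sites. On the deposited scale, 144 of 145 sites fell and 1 rose, against a background over all 39657 sites of 89.6% lower and 9.07% higher. The groups did not overlap at 127 sites with KO lower, against 80.9% of all sites, and at 1 with KO higher (8.61%). The median difference, KO minus WT on the log2 scale, was -0.79 for ribosomal protein sites, -0.84 for all sites and -0.80 for all gene-end sites. At the 40S genes the median was -0.78 over 54 sites and at the 60S genes -0.79 over 91 sites. As a share of each library's signal, the set was at 0.524% ± 0.00288 in KO untreated (SD, n = 3), 0.531% ± 0.0447 in WT untreated (n = 3), 0.514% ± 0.0219 in KO acetate (n = 2) and 0.519% ± 0.0349 in WT acetate (n = 2). Group ranges of this share overlapped. The table's own numbering calls its rows differential, which is read here as a choice made from these libraries, so these counts are not independent evidence of a direction.

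Once libraries were brought to a common level by cyclic loess, which sets the median of all sites near 0, the set no longer moved. Its median was 0.02, 1 site was higher (background 9.35%) and 2 were lower (2.41%). The other 2 scalings tried left 1 site higher and 4 or 5 lower. Shares over all sites under those 2 scalings are not given, so these counts were not compared with other sites. Within the ATAC1 libraries alone, as deposited, 134 sites fell and 1 rose (87.6% and 8.87% of all sites), and the median was -0.69, or -0.83 over all sites.

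**Figure D2:**
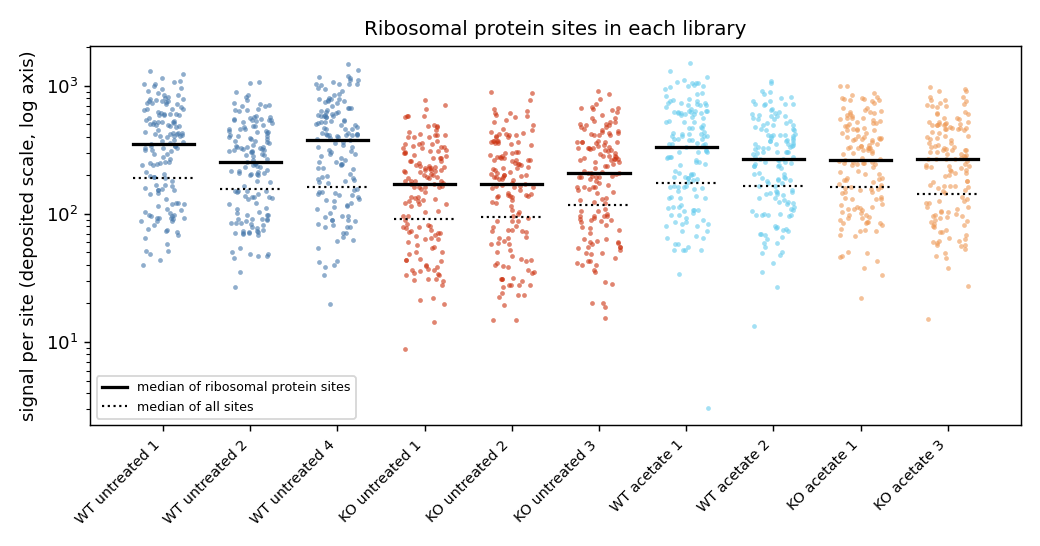
Signal at each of the 145 ribosomal protein sites (points, log axis) in the 10 libraries, with the median of these sites (solid line) and of all sites (dotted line). Both medians are lowest in the 3 KO untreated libraries, where that of ribosomal protein sites lies between 170.0 and 206.9.

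The smallest falls on start windows included that at Rplp0. At this site (chr5:115559270-115559470, over the window printed above, mean signal 897), signal was 1034, 892 and 1100 in WT untreated and 654, 775 and 787 in KO untreated. All 3 KO values lie below all 3 WT values, and the difference was -0.45 ± 0.18 (log2, SE, adjusted p = 0.012). Rps18 (-0.48) and Rps12 (-0.52), with lower mean signal (281.8 and 314.2), had similar values, both called. These 3 had the opposite sign under each of the 3 other scalings, at 0.19, 0.34 and 0.29 with cyclic loess, and none was called under any of the 3. Their calls were also lost within ATAC1 (adjusted p = 0.0501, 0.15 and 0.0602) and without KO untreated 1 (0.061, 0.11 and 0.0832). At Rps18 it was lost without KO untreated 2 (0.0722), WT untreated 1 (0.0866) or WT untreated 4 (0.12) too, and at Rps12 without WT untreated 1 (0.0626). Across the 87 gene-end sites, the difference and the mean log2 signal were correlated at Pearson r = 0.646 (Spearman rho 0.556), and at 0.253 (rho 0.11) after cyclic loess. Over all 145 ribosomal protein sites r was 0.311 (rho 0.495). Over all 39657 sites r was -0.149, of the opposite sign, while rho was 0.235, of the same sign. These are across sites of the same 10 libraries, which are not independent.

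The steepest falls near a gene were at weaker sites. A site inside Rpl34 (chr3:130727778-130727978), 2459 bp past the start and within 1 kb of the gene's end, read 51.2, 45.2 and 42.0 in WT untreated and 14.3, 14.9 and 15.4 in KO untreated. The groups were well apart, with a difference of -1.57 ± 0.29 (adjusted p = 2.39e-06), but after cyclic loess it was -0.66 (adjusted p = 0.0633). A site near Rpl18 (chr7:45717033-45717233), centred at -938 bp from its annotated start and also overlapping Sphk2, differed by -1.56 ± 0.29 and had -0.64 (adjusted p = 0.0713) after cyclic loess. Sites inside Rpl36 (-1.28), Rps26 (-1.28) and Rps15a (-1.27) followed, all called on the deposited scale.

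There were 3 ribosomal protein sites called in the same direction on both scales, and none of them is on a start window. A site 10668 bp from Rpl37a (chr1:72724481-72724681), a 60S gene, had 64.9, 91.4 and 63.0 units in WT untreated and 21.4, 23.4 and 18.9 in KO untreated. KO lay below WT in every library, by -1.72 ± 0.26 (adjusted p = 2.33e-08), and by -0.79 after cyclic loess. A site 13876 bp from Rpl21 (chr5:146818814-146819014) read 398, 362 and 419 in WT and 119, 136 and 199 in KO untreated. Its groups did not overlap, with -1.40 ± 0.21 (adjusted p = 1.44e-08), and -0.61 after cyclic loess. In ATAC1 libraries alone the values were -1.82 for Rpl37a and -1.36 for Rpl21, both called.

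The exception in direction lay inside Rps24 (chr14:24495493-24495693), 4840 bp past the start, whose product helps process the small-subunit ribosomal RNA. It had 39.96, 35.2 and 19.9 units in WT untreated and 72.4, 52.3 and 89.9 in KO untreated. KO was higher in all 3 libraries, by 1.17 ± 0.37 (adjusted p = 0.00264), by 2.02 after cyclic loess and by 0.88 (adjusted p = 0.00433) within ATAC1.

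Sites at the genes of better known ribosomal proteins, on the start window or else within 1 kb of a gene end, differed by -0.45 (Rplp0, above) to -1.02, against all-site quartiles of -1.03 and -0.66. The lowest was Rpsa (-1.02 ± 0.21, adjusted p = 1.79e-05), with -0.27 (adjusted p = 0.499) after cyclic loess. Rpl5 and Rpl11, which with 5S RNA can hold back the p53 regulator Mdm2, had differences of -0.69 ± 0.22 and -0.87 ± 0.20. Rpl22, needed for αβ T cell development, had -0.69, and its paralog Rpl22l1 -0.71. Rps27l, a paralog known as a p53 target, had -0.67. Rplp1, a stalk protein, had -0.80 at its own gene. For Rps6 signal was 643, 461 and 771 in WT untreated and 338, 371 and 413 in KO untreated, with no overlap and a difference of -0.71 ± 0.20. At the Rpl13a start-window site, the strongest of the set, the values were 1312, 1077 and 1475 in WT and 773, 875 and 862 in KO untreated, again with every KO library below every WT library, and the difference was -0.61 ± 0.17. Rpl3, a protein of the peptidyl transferase region, had -0.74, Rps3 -0.82, Rps14 -0.65, and Rpl10, at a site centred at -443 bp from its start, -0.56. Every one of these was called as deposited and none after cyclic loess, where all but Rpsa lay between -0.15 and 0.23. The Rpl35 site (chr2:39005104-39005304), added to show the longest TOP tract printed above, had 820, 540 and 805 in WT and 398, 429 and 524 in KO untreated, a difference of -0.66 ± 0.19 (adjusted p = 0.000993) and of 0.04 after cyclic loess.

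Genes with several sites showed how far the sites of 1 locus vary. Rpl14 had 9 sites, the most of any gene, reaching 16914 bp from its body, and all had negative differences, from -0.71 to -1.37. Its promoter site (chr9:120571348-120571548) went from 544 in WT to 325 in KO untreated (means), a difference of -0.73, and weaker sites 3490 and 4081 bp from the gene had -1.25 and -1.37. After cyclic loess the 9 values ran from -0.44 to 0.19. Rpl11 had 7 sites, between -0.62 and -1.01 as deposited and between -0.16 and 0.23 after cyclic loess.

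Sites on start windows were also split by motif. Those with an ETS core (21 sites) had a median mean signal of 514.0 and a median difference of -0.79, and those without (36 sites) had 330.0 and -0.73. With a TOP tract within 5 bases of the start (26 sites) the values were 470.0 and -0.74, and without it (31 sites) 314.0 and -0.78. With a YY1 motif (11 sites) they were 317.0 and -0.72, against 390.0 and -0.76 without (46 sites). With a GC box (34 sites) they were 480.0 and -0.79, against 290.0 and -0.71 without (23 sites). These are descriptions without a test, and splits by the remaining motifs are not given.

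**Figure D3:**
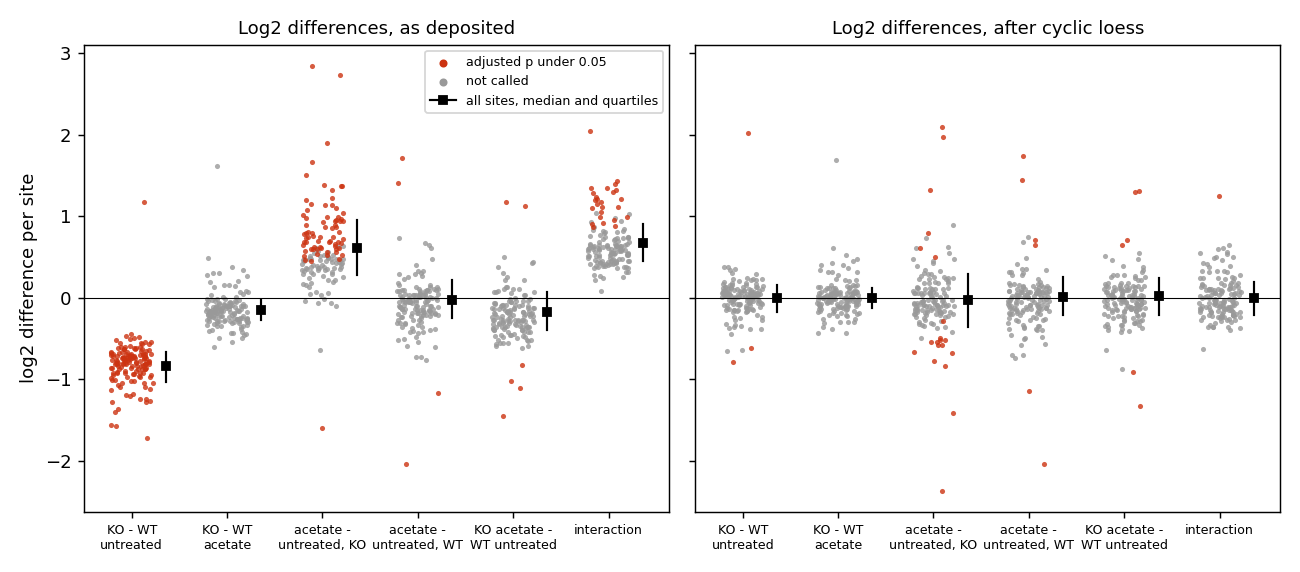
Log2 differences at the 145 ribosomal protein sites for the 6 contrasts, as deposited (left) and after cyclic loess (right), red where the adjusted p was under 0.05, with the median and quartiles of all 39657 sites as black squares and bars. Ribosomal protein sites lie around the median of all sites in each contrast, at -0.79 against -0.84 for KO minus WT untreated.

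With acetate in the medium, no ribosomal protein site was called between KO and WT by limma (0 of 145 in either direction, against 0.0227% of all sites higher and 0% lower). An unadjusted p under 0.05 was found at 1 site in each direction, against 914 of all 39657 sites, both directions together. The median over the 145 sites was -0.165, against -0.15 for all sites, and it was -0.0418 without WT acetate 1 and -0.344 without WT acetate 2. The Rps24 site stood out in size, with 3.08 and 13.3 units in WT acetate and 33.3 and 15.1 in KO acetate. The groups did not overlap, but the difference of 1.62 ± 0.46 was not called (adjusted p = 0.962), and the lowest of these values rests on 1 read. Without WT acetate 2 it was 2.53 (adjusted p = 0.00308). The next highest values near a gene were 0.49 at Rpl18, 0.34 at Rpl10a, 0.31 at an internal Rpl22 site and 0.31 at Rpl6. The lowest were -0.54 at Rpl34, -0.50 at Rpl11, -0.45 at Rps4x, -0.44 at Rpl19 and -0.43 at Rps3, and none of these 9 was called. The 43 sites where KO acetate lay below WT acetate without overlap compare with 30.3% of all sites, and the 5 with KO above with 4.63%.

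In KO cells, acetate libraries had higher signal at 71 ribosomal protein sites and lower at 1, against 54.6% and 5.94% of all sites. The groups did not overlap at 116 sites with acetate higher (69.8% of all sites) and at 2 with acetate lower (8.15%). The median was 0.53, against 0.61 for all sites. With cyclic loess 6 were higher and 14 lower (11.5% and 16.7% of all sites). Leaving out KO acetate 1 gave 29 higher, KO acetate 3 gave 47, KO untreated 1 gave 43 and KO untreated 2 gave 46. At gene ends, 38 of 87 ribosomal protein sites were higher, with a median of 0.49. Over all gene-end sites 5757 of 9691 were higher, with a median of 0.60. Away from gene ends, 33 of 58 ribosomal protein sites were higher, with a median of 0.63. Over all sites away from gene ends 15900 of 29966 were higher, with a median of 0.61. By subunit, 28 of 54 sites at 40S genes and 43 of 91 at 60S genes were higher, against 54.6% of all sites. With the prefix as a term 18 sites were higher and 0 lower by limma (27.3% and 2.53% of all sites), with a median of 0.224, or 0.56 over all sites.

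At 5 genes a site was higher with acetate in KO cells on both scales. The Rpl37a site rose from 21.4, 23.4 and 18.9 to 184 and 136, a difference of 2.85 ± 0.29 (adjusted p = 2.32e-15), and 2.09 after cyclic loess. At Rpl34 the values went from 14.3, 14.9 and 15.4 to 132 and 83.0, by 2.74 ± 0.32, and 1.97 after cyclic loess. At Rpl21 they went from 119, 136 and 199 to 622 and 498, by 1.91 ± 0.23 (1.32). A site 14690 bp from Rpl3 (chr15:80062891-80063091) went from 180, 210 and 215 to 552 and 496, by 1.37 ± 0.23 (0.80), while the site at Rpl3 itself was not among them. Rpsa was the promoter in this group. Its site (chr9:120127516-120127716, on the printed window) had 239, 247 and 253 in KO untreated and 599 and 504 in KO acetate, a difference of 1.16 ± 0.23 (adjusted p = 1.97e-05) and 0.61 after cyclic loess, but 0.54 (adjusted p = 0.084) with median-of-ratios factors and 0.24 (adjusted p = 0.637) with the prefix as a term. No KO untreated value reached an acetate value at any of these 5 sites.

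Other sites near a gene with high values as deposited were at Rpl26 (1.66), Rpl36 (1.51), Rpl10a (1.38) and Rpl12 (1.37), all called, but with the prefix as a term Rpl36 was at 0.76 (adjusted p = 0.225) and Rpl12 at 0.96 (adjusted p = 0.0944). At the other end, the Rps24 site was lower, from 72.4, 52.3 and 89.9 to 33.3 and 15.1, by -1.59 ± 0.42 (adjusted p = 0.000812) and -2.36 after cyclic loess. Without KO acetate 3 it was -1.05 (adjusted p = 0.0779), and with the prefix as a term -0.71 (adjusted p = 0.385). Rps13 (-0.07), Rps18 (-0.04) and Rps26 (-0.01, at a promoter site) were not called as deposited. After cyclic loess all 3 were called lower, at -0.84 (adjusted p = 0.0286), -0.66 (0.00342) and -0.55 (0.00491), and with median-of-ratios factors and total signal Rps18 and Rps26 were called lower too. Without KO untreated 3 the Rps13 value was 0.16, not called.

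**Figure D4:**
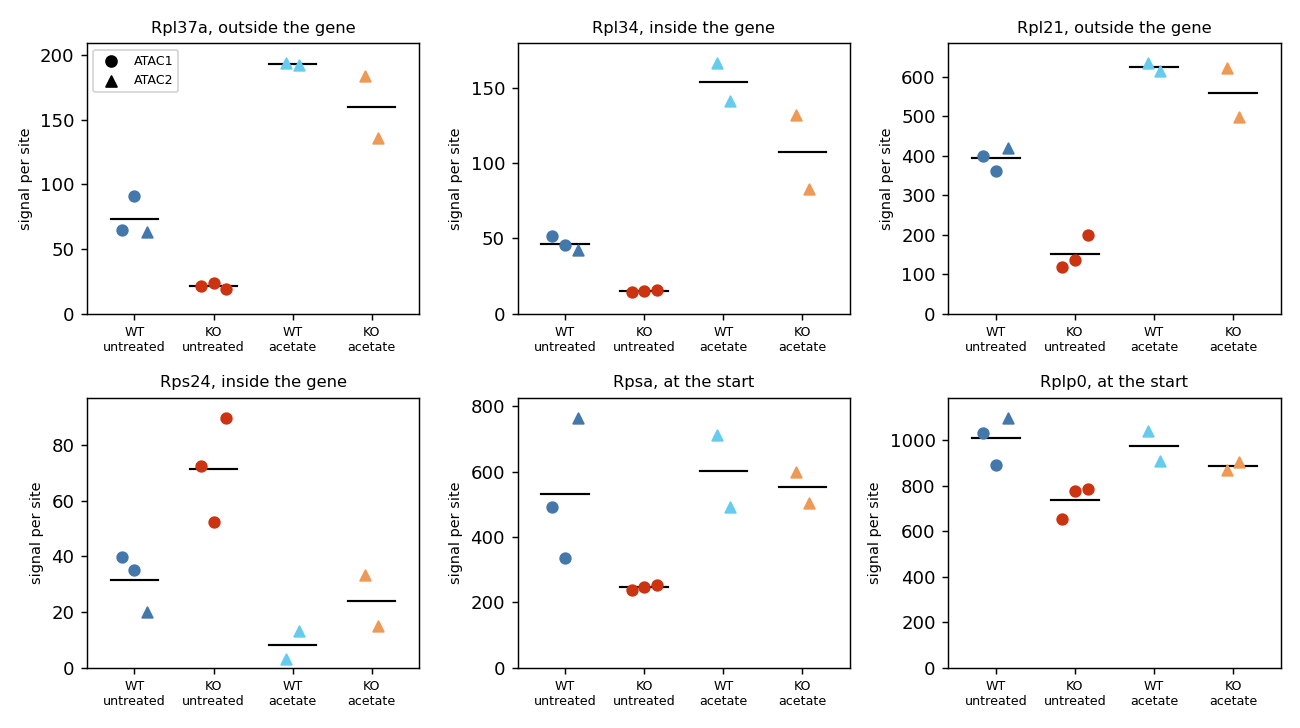
Signal per site (y axis, from 0) in each library for 6 ribosomal protein sites, by group, with circles for ATAC1 and triangles for ATAC2 columns and a bar at the group mean. Rpl37a and Rpl34 are higher in both acetate groups than in both untreated groups, Rps24 is highest in KO untreated, and Rplp0 stays between 654 and 1100 throughout.

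In WT cells, few ribosomal protein sites were called between acetate and untreated libraries: 2 higher and 2 lower, against 2.91% and 3.02% of all sites. The median was -0.05, and it ran from -0.232 without WT acetate 1 to 0.0774 without WT acetate 2, was positive also without WT untreated 4, and moved by over 1.5 times without WT untreated 1 or WT untreated 2. Cyclic loess left 4 higher and 2 lower (4.43% and 4.07% of all sites), and the groups did not overlap at 11 sites with acetate higher (16.1%) and 17 with acetate lower (15.3%). Higher were the Rpl34 site, from 51.2, 45.2 and 42.0 to 166 and 141 (1.71 ± 0.32, adjusted p = 0.000115), and the Rpl37a site, from 64.9, 91.4 and 63.0 to 194 and 192 (1.41 ± 0.29, adjusted p = 0.000467). Every acetate value exceeded every untreated value at both. Within ATAC2 the values were 1.84 and 1.60, but there the untreated arm is WT untreated 4 alone, so that adjusted p-values within ATAC2 take the spread from the acetate libraries and assume that this library varies like them. Without WT acetate 1, the Rpl37a value was 1.40 (adjusted p = 0.0506).

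Lower with acetate in WT cells were the Rps24 site and the distal Rplp1 site (chr9:61882322-61882522). Rps24 went from 39.96, 35.2 and 19.9 to 3.08 and 13.3, by -2.04 ± 0.42 (adjusted p = 0.000547). Within ATAC2 it was -1.45 (adjusted p = 0.154), and without WT acetate 1 it was -1.13 (adjusted p = 0.307). Rplp1 went from 72.4, 72.3 and 61.9 to 33.9 and 26.7, by -1.17 ± 0.35 (adjusted p = 0.0233), and within ATAC2 by -1.02 (adjusted p = 0.172). Its call was lost without WT acetate 1 (adjusted p = 0.147), WT acetate 2 (0.266), WT untreated 1 (0.0918) or WT untreated 2 (0.0726). The next highest values near a gene were at Rpl26 (0.73), Rps4x (0.40), Rpl19 (0.33) and Rpl11 (0.30), and among the lowest were Rpl35a (-0.76), Rpl18 (-0.72) and Rpl6 (-0.60), none called. Within ATAC2, against that 1 untreated library, Rpl35a was at -1.24 (adjusted p = 0.0181).

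KO cells with acetate were also set against untreated WT cells, and few ribosomal protein sites were called. The difference was negative at 122 of the 145 sites, against 27496 of all 39657 sites. Called higher were 2 sites and called lower 4 (2.09% and 5.74% of all sites), and after cyclic loess 4 and 2 (4.28% and 3.89%). The groups did not overlap at 5 sites with KO acetate higher (9.36%) and 31 with it lower (25.2%), and the median was -0.23, or -0.17 over all sites (-0.391 without WT untreated 2 and -0.14 without WT untreated 4). The distal Rpl37a site (1.12 ± 0.29, adjusted p = 0.00555) and the internal Rpl34 site (1.17 ± 0.32, adjusted p = 0.0103) were higher, with 184 and 136 against at most 91.4 for Rpl37a. Within ATAC2, against WT untreated 4 alone, they were 1.31 and 1.30. Without KO acetate 1, neither was called (0.90 and 0.84, adjusted p = 0.205 and 0.318). Among the lower were the distal Rplp1 site (-1.45 ± 0.35), a site 8109 bp from Rps21 (chr2:180249070-180249270, -1.11 ± 0.24) and Rps13 (-1.02 ± 0.33). Rps13 was not called after cyclic loess or without KO acetate 1 (adjusted p = 0.181), and within ATAC2 Rplp1 was at -1.30 (adjusted p = 0.0756) and Rps21 at -0.56 (adjusted p = 0.24). Rpl7l1 (-0.61), Rpl18 (-0.59) and Rpl19 (-0.59) were the next lowest near a gene and Rpl26 (0.43), Rpl10a (0.38), Rpl12 (0.30) and Rps16 (0.26) the next highest, none called. The Rps16 value turned to -0.55 within ATAC2 and to -0.11 without WT untreated 2, and it was called at 0.66 (adjusted p = 0.0412) without WT untreated 4. The untreated WT libraries of this contrast also serve the contrasts above, so these results share samples.

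The interaction of genotype and acetate is the KO minus WT difference with acetate less that without it. By limma it was positive at 25 ribosomal protein sites and negative at 0 (19.5% and 3.61% of all sites). At an unadjusted p under 0.05 it was positive at 60 of the 145 sites and negative at 0. Over all sites, 19770 of 39657 had an unadjusted p under 0.05, both directions together. The median interaction was 0.60, against 0.67 for all sites. With the prefix as a term 26 sites were positive and 0 negative by limma (28.8% and 4.11% of all sites), with a median of 0.51. With cyclic loess 1 site was called (0.139% of all sites were positive and 7.36% negative), the Rpl18 site that also overlaps Sphk2, at 1.25 (adjusted p = 0.0296), against 2.04 ± 0.45 as deposited. It had 97.4, 83.4 and 70.8 in WT untreated, 30.2, 19.6 and 35.5 in KO untreated, 52.3 and 47.7 in WT acetate and 84.4 and 58.8 in KO acetate. All KO values lay below the WT values without acetate and above them with it. Without KO acetate 1 the interaction was 1.79 (adjusted p = 0.0592). Among the smallest interactions near a gene were those at gene-end sites of Rpl10 (0.26), Rpl13a (0.28) and Rps27 (0.31), none called, and all 3 were negative under the other 3 scalings. The count of 25 ranged from 0 without KO acetate 1 to 78 without WT untreated 2, and it fell to 2, 5, 5, 5 and 11 without KO untreated 1, KO untreated 2, WT untreated 1, WT acetate 2 and KO acetate 3.

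Genes that make or regulate ribosomes gave a frame for these results in KO against WT untreated cells. For ribosome biogenesis and RNA polymerase I, 74 of 84 genes had sites, and of 148 sites 10 were higher and 138 lower as deposited (median -0.84), where 9.07% and 89.6% of all sites were. After cyclic loess, 10 were called higher, against 9.35% of all sites. The shares called higher were below those over all sites, and the single sites given here were named by their adjusted p. Called higher on both scales were sites inside Utp18 (156.7 ± 38.3 in KO, 76.8 ± 13.9 in WT, SD, n = 3; log2 1.01), a small-subunit processome protein, and inside Mdn1 (71.6 ± 10.4 and 36.7 ± 5.05; 0.94), an AAA ATPase of 60S assembly. Sites near Wdr36 (1.44) and Nmd3 (0.72), the 60S export adaptor, were higher too. For a list of translation factors, mostly of initiation and elongation, 5 of 106 sites were higher and 101 lower as deposited. After cyclic loess 5 were called higher, again no larger a share than over all sites. These included sites inside Eif3e (43.1 ± 11.9 in KO, 9.71 ± 1.33 in WT; 2.02), Eif4g3 (1.03) and Etf1 (0.75) and near Pabpc1 (0.98).

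Regulators of TOP mRNAs and of ribosomal protein output had 111 sites, with 1 higher and 110 lower as deposited, and 1 and 2 after cyclic loess, against 9.35% and 2.41% of all sites. The higher one lay inside Larp1 (chr11:58045239-58045439), the TOP mRNA-binding protein, with 90.2 ± 21.0 units in KO and 28.1 ± 7.03 in WT untreated (SD, n = 3), 1.65 ± 0.32 as deposited and 2.53 after cyclic loess. Lower on both scales were sites inside Mnt (-2.03), a MAX-binding repressor that opposes MYC, and inside Rps6ka1 (-1.30), a kinase that phosphorylates RPS6. Mxi1 (-1.85), another MAX partner, was called as deposited only (adjusted p = 0.0643 after cyclic loess).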

How the data were processed

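ATAC-seq values came from 1 table of the whole series, with 1 column per library on GRCm38. The deposited values are signal: whole reads divided by 1 factor per library, since within 0.001 reads 100% of the values in each library are whole multiples of 1 step. What these factors were based on is unstated in the labels and headers read here. The submitters' processing notes list DiffBind 3.6.1 and Genrich, then BWA 0.7.16a, deepTools 3.5.1, DESeq2 and DESeq, and also Picard 2.10.9 with FastQC 0.11.5. Such a factor acts alike on every site of a library, and its part in the differences between groups was not tested.

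Log2(value + 1) was fitted with limma 3.58.1 (trend, robust; R 4.3.3), with 4 group means over 10 libraries. The method was tested on simulated data without a shift shared by most sites, so that test does not cover such a shift. Calls used a Benjamini-Hochberg adjusted p under 0.05, with the adjustment made across the whole table of 39657 sites. Columns WT 4 and KO acetate 3 carry numbers absent from the titles and were placed by group only.

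Sites named were, per contrast, up to 6 genes per direction called both as deposited and after cyclic loess, the 5 highest and 5 lowest sites within 1 kb of a gene body, the 5 highest in signal, 16 fixed genes (Rps19 and Rplp2 had no site) and up to 4 genes per other list. Some genes that the rule picks, and 1 marker gene, are not reported here. Rpl14 and other multi-site loci, Rpl35 and motif splits were chosen after their values were seen. Members and lists were chosen with earlier results of these data known. Figures were drawn with matplotlib 3.10.9, and the remaining tables with pandas 2.3.3, scipy 1.17.1 and numpy 2.4.6 in Python 3.11.15.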

Additional observations from a re-analysis of the deposited data

Results flagged for a closer look

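At 13 of the ribosomal protein sites named by the rule, the KO minus WT difference was not the same with and without acetate, by the limma interaction term on the deposited scale. On that scale 19.5% of all sites were called positive, and the interaction over all sites had a median of 0.67 and an upper quartile of 0.90. The interaction was 2.04 at the Rpl18 site that also overlaps Sphk2, 1.44 at the distal Rpl37a site and 1.24 at the distal Rpl21 site. It was 1.4 at Rpl35a, 1.35 at Rpl10a, 1.34 at the site inside Rps26, 1.33 at Rpl12, 1.28 at Rps15a, 1.21 at Rpl36, 1.18 at Rpl6, 1.1 at an internal Rpl22 site, 0.96 at Rps16 and 0.919 at Rpsa. After cyclic loess the Rpl18 site alone was called, at 1.25 (adjusted p = 0.0296). Without KO untreated 1, limma called 2 ribosomal protein sites. Rpl35a (adjusted p = 0.0862), Rpl10a (0.0907), Rps26 (0.0501) and Rpl12 (0.0635) were not among them. Without KO acetate 1, the Rpl18 value was 1.79. KO untreated libraries carry ATAC1 and acetate libraries ATAC2 column names, and with this prefix as a term the Rpl18 interaction was 2.16 (adjusted p = 0.000201), while Rpl36 (0.964, adjusted p = 0.0609), Rps16 (0.557, adjusted p = 0.132) and Rpsa (0.615, adjusted p = 0.0956) were no longer called.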

How the results depend on the processing

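Scaling changed most. For KO against WT untreated, lower sites numbered 4 with median-of-ratios factors, 5 with equal total signal and 2 with cyclic loess, and the median was 0.0158, -0.0725 and 0.0205. For acetate in KO, higher and lower sites numbered 11 and 13, 13 and 10, and 6 and 14, and the median was -0.085, 0.0167 and -0.0604. For the interaction, 1 site was called higher under each, and the median was -0.0383, 0.0587 and -0.0246. For acetate in WT and for KO acetate against WT untreated, 4 sites were higher under each, and in the last 2 were lower, with a median of -0.0215 after cyclic loess. The cause was not tested. Under cyclic loess, 11.5% of all sites were higher and 16.7% lower for acetate in KO. Such shares are not given for the other 2 scalings or for fits without 1 library, so those counts were not compared with other sites.

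Signs of KO minus WT untreated that turned are given with median-of-ratios factors, total signal and cyclic loess in that order: Rplp0 0.355, 0.267 and 0.187, Rps18 0.326, 0.237 and 0.344, Rps12 0.283, 0.195 and 0.288, Rps6 0.0898, 0.00142 and 0.0195, Rps14 0.151, 0.0622 and 0.0704, Rpl5 0.112, 0.0236 and 0.16, Rpl10 0.246, 0.158 and 0.229, Rpl22 0.117, 0.0283 and 0.0472, Rpl22l1 0.0951, 0.00669 and 0.0124, and Rps27l 0.134, 0.0457 and 0.064. Rpl13a turned with median-of-ratios factors and total signal (0.191 and 0.103), Rpl3 with median-of-ratios factors and cyclic loess (0.0611 and 0.0365), and Rps21 (0.0188) and the Rplp1 gene-end site (0.00107) with median-of-ratios factors alone. Interactions that turned were Rpl10 -0.387, -0.289 and -0.358, Rpl13a -0.37, -0.272 and -0.149, and Rps27 -0.334, -0.236 and -0.235.

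Keeping only sites at or above the 25th percentile of mean signal, which drops the Rps24 site, left 0 higher for KO against WT untreated, 0 lower for acetate in KO, 1 higher and 0 lower for acetate in WT, and 1 and 2 for KO acetate against WT untreated. Of sites within 1 kb of a gene, 46 were higher for acetate in KO, 1 higher and 1 lower for acetate in WT, 1 and 2 for KO acetate against WT untreated, and 16 higher for the interaction, since fewer sites were counted. A pseudocount of 5 changed no call of a named site. Dropping sites shared with another gene left every count within 1.5 times. Within ATAC2, and also with the prefix as a term, the Rps16 value for KO acetate against WT untreated was -0.546. The prefix as a term, added after the data were seen, left 18 sites higher and 0 lower for acetate in KO (median 0.224), 1 lower for acetate in WT and 0 lower for KO acetate against WT untreated.

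No label says that replicate numbers pair libraries, and the correlation of number 1 minus number 2 across sites was 0.187 between KO and WT untreated, 0.0274 between KO untreated and WT acetate and 0.319 between WT untreated and WT acetate. With the number as a replicate block in 7 libraries, 0 sites were higher for KO against WT untreated (Rps24 0.701, adjusted p = 0.0637), 1 higher for KO against WT acetate (Rps24), 0 lower for acetate in KO, 5 lower for acetate in WT and 38 higher for the interaction. In that block fit Rpl6 with acetate was -0.245, and for acetate in KO Rps18 was 0.00514 and Rps26 0.0897.

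Leaving out 1 library at a time, called higher ranged from 29 to 87 sites for acetate in KO, 1 to 3 for acetate in WT, 0 to 3 for KO acetate against WT untreated, 0 to 1 for KO against WT acetate and 0 to 78 for the interaction. Called lower ranged from 136 to 144 for KO against WT untreated, 0 to 1 for acetate in KO, 0 to 4 for acetate in WT (0 without WT acetate 1, 4 without WT untreated 2) and 1 to 9 for KO acetate against WT untreated (1 without KO acetate 1, 2 without WT untreated 1, 9 without WT untreated 2). Signs turned within -0.0157 to 0.626 for Rpl6 with acetate, and for acetate in KO within -0.304 to 0.162 for Rps13, -0.122 to 0.0583 for Rps18 and -0.113 to 0.0716 for Rps26. Rps16 for KO acetate against WT untreated ran from -0.11 to 0.664.

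The planned edgeR count test was not run, because the values are normalized signal. Depth limits the weakest sites, where 1 to 32 reads is the lowest count in a library.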
